A study of Mus musculus with 4 samples.

Results

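Leukocytes are the white blood cells, and 31 genes known from them were read in cells cut from the glands of the mouse stomach: general leukocyte genes, the major histocompatibility complex (MHC) class II genes, and genes of macrophages, T cells and B cells. The members were given as a list of gene symbols, and a member was taken from each probe set that the platform annotation ties to that symbol alone. All 31 were measured, each by 1 probe set, among 19938 genes measured in all. The list was read as 11 pan-leukocyte genes, 4 MHC class II genes, 8 macrophage and myeloid genes, 2 adapters of innate cells, 3 T cell genes, 2 B cell genes and the MHC class I-like gene Mr1.

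The series held 4 arrays, 1 for each combination of cell type and genotype: mucous neck cells and zymogenic (chief) cells, each from wild-type mice and from MIST1 knockout mice, called MIST1-null here. MIST1, the product of Bhlha15, is a transcription factor that builds the secretory machinery of zymogenic cells, and the sources used here do not say how the knockout allele was made. All mice were adults on a C57BL/6 background, and cells were taken from stomach sections by laser capture microdissection. Zymogenic cells were picked as corpus cells lying below the lectin-stained neck cells and lacking the outline of parietal cells, and not by a sort. Dissection used 4 wild-type mice and 5 MIST1-null mice, 2 caps from each animal, and an array received about 100 ng of RNA pooled over dissections and mice before amplification. A pool therefore stands for its group with no measure of the spread between animals, so the differences are those between single pools and carry no error or p-value.

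In the gastric mucosa, leukocytes lie in the connective tissue between the glands and, in smaller number, among the epithelial cells. Macrophages and dendritic cells there take up debris and microbes, and they load peptides onto MHC class II molecules for T cells to read. T cells sense such peptides through a receptor that signals through the CD3 chains, and B cells use a surface antibody that signals through CD79A and CD79B. Epithelial cells do not usually carry the pan-leukocyte proteins, but they can make MHC class II molecules under interferon gamma.

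Levels are array intensities. An intensity was called detectable from 43.7 upward, the median of all probe sets with a single gene, a threshold chosen by size, since the files give no background reading. Differences are log2 values, written as zymogenic minus neck or as MIST1-null minus wild-type, and a member was counted as higher or lower where it differed by at least 2-fold and its brighter array was detectable. Intensities of different probe sets are not comparable in level, so each gene is compared only with itself across arrays. Sums over a list, where given, are weighted to its bright probe sets. In tissue RNA of this kind, fewer cells of a type and less RNA per cell cannot be told apart.

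The 4 arrays had median intensities from 37.9 to 40.9. Bhlha15 read 59.7 in wild-type neck and 149.8 in wild-type zymogenic cells, against 20.2 and 22.0 in the MIST1-null arrays, so the targeted gene was low where the labels say it was knocked out. The gland mucin gene Muc6 read 2511 and 2980 in the neck arrays and 26.7 and 20.7 in the zymogenic arrays, and the acidic chitinase Chia1 was higher by 2.18 in wild-type and 2.59 in MIST1-null zymogenic cells. The pepsinogen gene Pga5 ran the other way, with zymogenic minus neck differences of -5.45 and -6.53. Of 5 zymogenic genes listed, 3 in wild-type and 2 in MIST1-null mice counted as higher. Pgc, also on that list, differed by 0.20 and 0.29. Of 6 neck genes listed, 5 counted as lower in each genotype. The remaining neck gene, Aqp5, ran against its label at 0.54 and 0.56. The marker lists thus separated the cell types in part. Markers of further cell types were read in all 4 arrays and are given beside the results.

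The number of detectable members differed between arrays. In wild-type zymogenic cells 18 members were detectable, in MIST1-null zymogenic cells 14, in wild-type neck cells 11 and in MIST1-null neck cells 6. Of all 19938 genes, 10158, 10106, 9867 and 9514 were detectable in the same arrays. No array reached the level for 11 members: Laptm5, Cd52, Itgb2, Cd48, Rac2, Cd14, Itgam, C1qa, Cd3g, Cd79a and Cd79b. Ptprc encodes the phosphatase CD45, by which leukocytes are commonly recognised. Ptprc read 49.4 in wild-type neck, 30.6 in MIST1-null neck, 53.3 in wild-type zymogenic and 54.9 in MIST1-null zymogenic cells. Of those values 3 lay just above the level and the MIST1-null neck array lay under it.

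**Figure D1:**
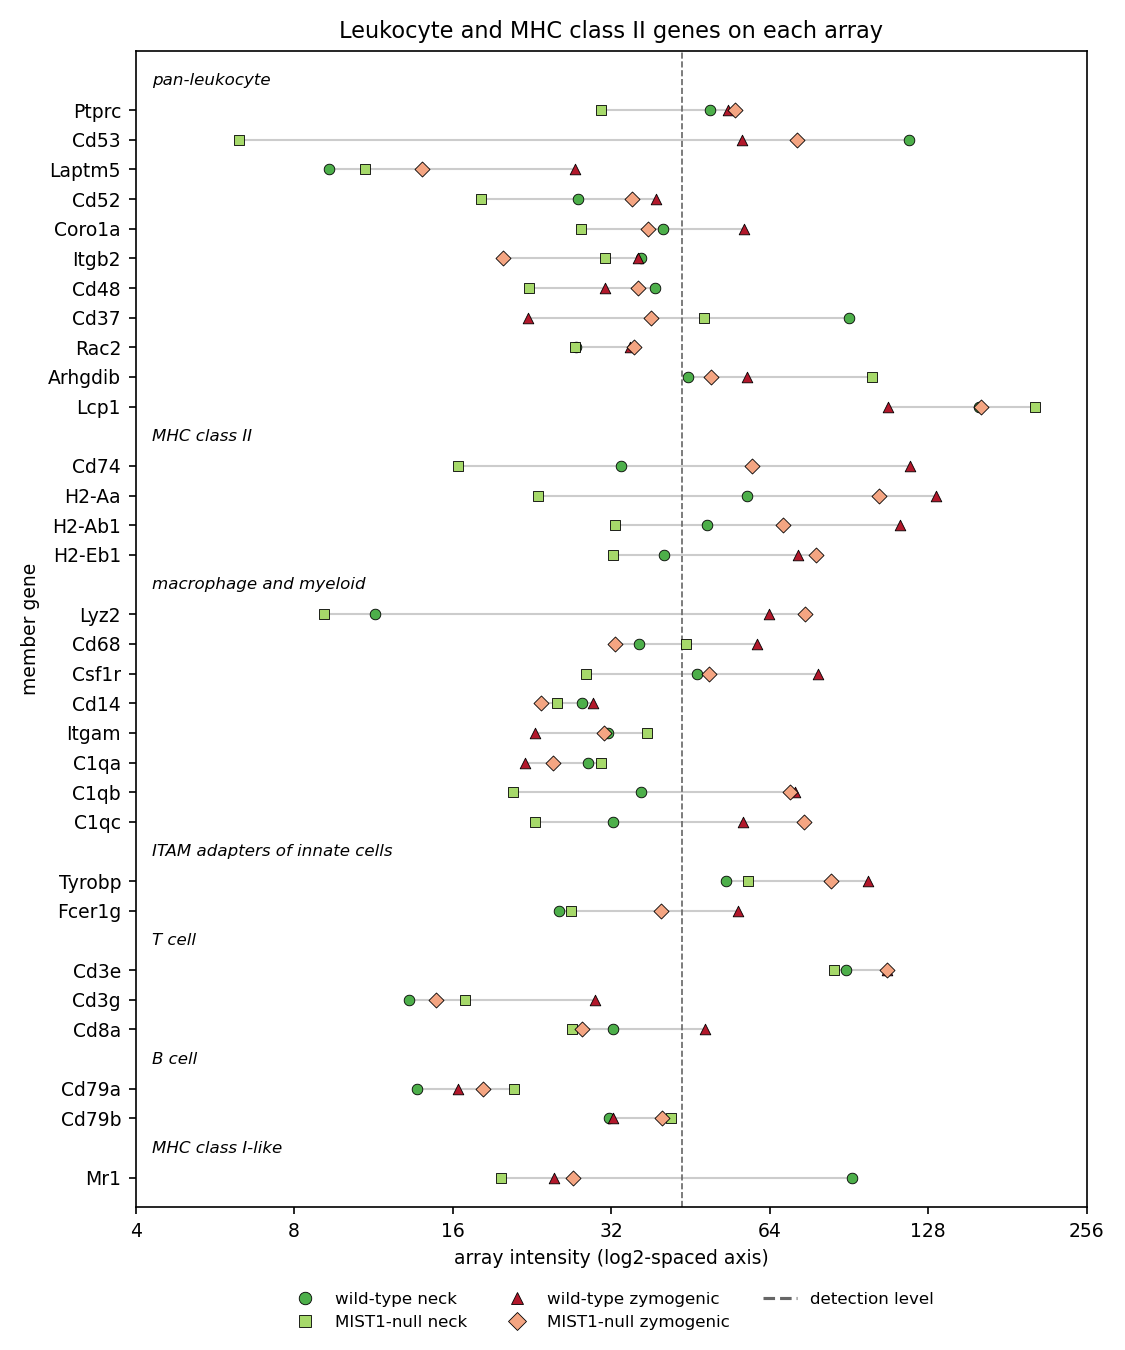
Intensity of each of the 31 members on the 4 arrays, on a log2-spaced axis, grouped by class. Each point is 1 array, the gray line spans the lowest to the highest array, and the dashed line is the detection level of 43.7. The red and orange zymogenic points lie right of the green neck points for 15 members. They are all 4 MHC class II genes, Lyz2, C1qb, C1qc, Csf1r, Tyrobp, Fcer1g, Ptprc, Laptm5, Cd52, Rac2 and Cd3e.

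Both zymogenic arrays read above both neck arrays for 15 of the 31 members, or 48.4%, where 23.1% of all measured genes did so. Both neck arrays read above both zymogenic arrays for 3 members, Cd37, Itgam and C1qa, or 9.68% against 16.9% of all genes. The MIST1-null neck array held the lowest of the 4 values for 17 members, or 54.8%, against 27.4% of all genes. The wild-type zymogenic array held the highest value for 15 members, or 48.4%, against 32.8%. These are counts over genes of 4 pools, and genes of 1 kind of cell do not vary independently.

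In wild-type mice, 5 members were at least 2-fold higher in zymogenic than in neck cells, or 5 of 31, beside 3.71% of all measured genes. They were Lyz2, Cd74, H2-Ab1, H2-Aa and Fcer1g. At least 2-fold lower were 3 members, Cd37, Mr1 and Cd53, beside 4.01% of all genes. Laptm5 at 1.55 and Cd3g at 1.18 also passed 2-fold, but neither was detectable on either array and they were not counted. The median over the 31 members was 0.49, against 0.05 over all genes. Above 0 lay 23 of 31 members, beside 54.0% of all genes.

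In MIST1-null mice, 8 members were at least 2-fold higher in zymogenic than in neck cells, beside 2.78% of all genes. They were Cd53, Lyz2, H2-Aa, Cd74, C1qb, C1qc, H2-Eb1 and H2-Ab1. The sole member at least 2-fold lower was Arhgdib, beside 2.72% of all genes. The median over the members was 0.43, against 0.05 over all genes. Above 0 lay 20 of 31 members, beside 54.4% of all genes. The pairs of arrays behind both comparisons share no array. A cell type comparison and a genotype comparison do share an array, so their values are not independent. Lyz2, Cd74, H2-Aa and H2-Ab1 were higher in zymogenic cells of both genotypes, which made 12.9% of the members, beside 0.943% of all genes.

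**Figure D2:**
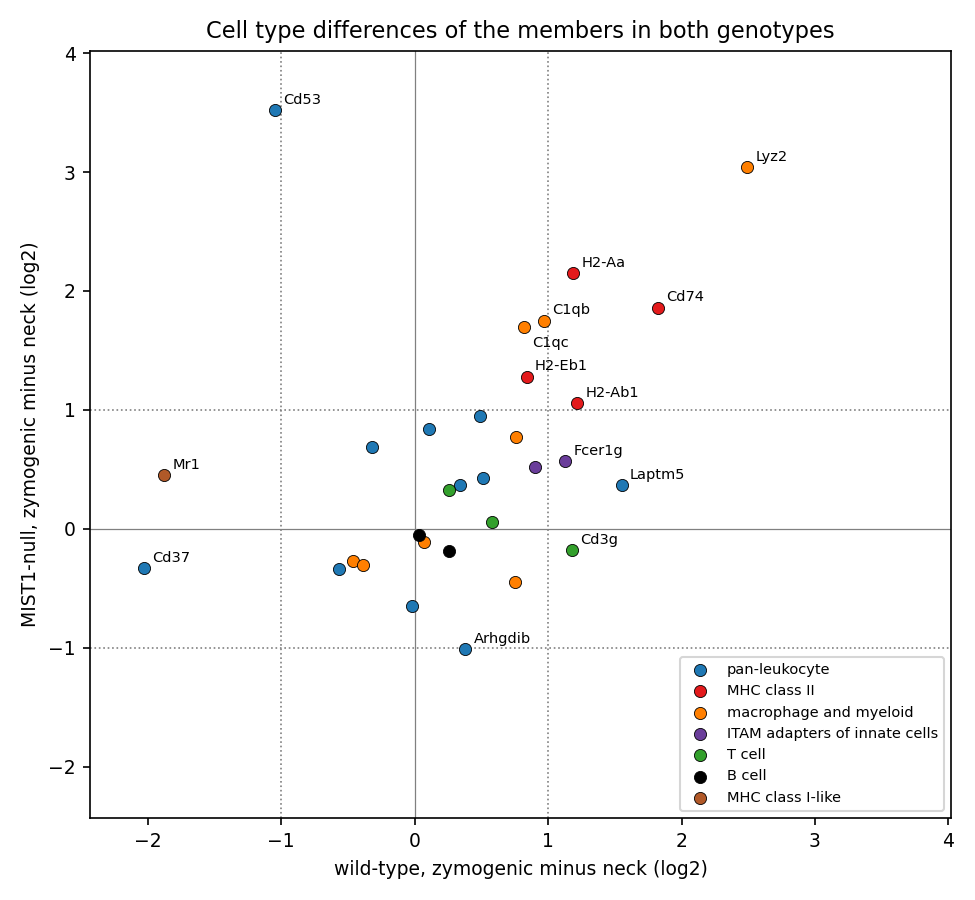
Log2 difference between zymogenic and neck cells for each member, in wild-type mice on the horizontal axis and in MIST1-null mice on the vertical axis, coloured by class. Dotted lines mark 2-fold, and names are given where either rounded difference reaches it, counted or not. The 4 MHC class II genes and Lyz2 sit in the upper right, while Cd53 sits alone at the upper left with -1.05 and 3.52.

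The MHC class II genes were the class that stood highest in zymogenic cells. H2-Aa encodes the alpha chain and H2-Ab1 the beta chain of the class II molecule I-A, H2-Eb1 encodes the beta chain of I-E, whose alpha chain gene is defective in C57BL/6 mice, and Cd74 encodes the invariant chain that guides class II molecules through the cell. H2-Aa, H2-Ab1 and H2-Eb1 lie next to each other on chromosome 17, with 13.3 kb between H2-Ab1 and H2-Aa and 18.0 kb between H2-Aa and H2-Eb1 in RefSeq genes of GRCm38.p6. Genes of this family are switched on through a promoter module of an X box and a Y box, which hold the factor assembly that recruits the coactivator CIITA. The RefSeq promoter windows of the 2 chain genes with an entry are shown because these genes were high in the same arrays, with matches to an X box core (GCAACT) and to a Y box (CTGATTGG) in capitals. Each window runs 5′ to 3′ on the strand of its gene, from 250 bases before to 50 bases after the start, at chr17:34287774-34288073 on the minus strand for H2-Aa and at chr17:34305617-34305916 on the plus strand for H2-Eb1.
H2-Aa: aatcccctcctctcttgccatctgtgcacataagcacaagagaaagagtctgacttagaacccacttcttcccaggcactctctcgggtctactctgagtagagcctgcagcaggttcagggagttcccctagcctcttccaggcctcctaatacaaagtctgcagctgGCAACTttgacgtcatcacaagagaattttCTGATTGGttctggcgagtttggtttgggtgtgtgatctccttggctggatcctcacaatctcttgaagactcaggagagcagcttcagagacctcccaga
H2-Eb1: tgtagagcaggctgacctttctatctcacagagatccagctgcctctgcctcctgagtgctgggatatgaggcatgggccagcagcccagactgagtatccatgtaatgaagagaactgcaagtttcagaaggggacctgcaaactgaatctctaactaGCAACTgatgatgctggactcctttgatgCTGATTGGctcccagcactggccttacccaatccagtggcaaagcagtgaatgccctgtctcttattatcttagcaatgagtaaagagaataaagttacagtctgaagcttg

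In H2-Aa the X box core began 81 and the Y box 51 bases before the start, and in H2-Eb1 they began 91 and 62 bases before it. The distance from core to Y box was 30 bases in H2-Aa and 29 in H2-Eb1. Searched on both strands, the X box core was in 10.9% and the Y box in 4.1% of the 32851 RefSeq windows of the same length. The core followed by the Y box within 60 bases on the strand of the gene was in 7 windows, or 0.0213%. They were those of H2-Aa, H2-Eb1 and the related H2-Eb2, and of Aldh4a1, Gm10825, Gm12253 and Narf. The letters of the core were chosen after these windows had been read, and a match is a description of letters. Of the 31 members, 21 had a window, and H2-Aa and H2-Eb1 were the members with this pair. The core alone, on either strand, was in 4 of the 21, which also took in Cd53 and Mr1. These are counts of genes and not of windows.

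H2-Aa read 57.9 in wild-type neck, 23.2 in MIST1-null neck, 132.2 in wild-type zymogenic and 103.2 in MIST1-null zymogenic cells. H2-Ab1 read 48.7, 32.5, 113.1 and 67.9 in the same order. H2-Eb1 read 40.4, 32.2, 72.4 and 78.5. For all 3 genes both zymogenic arrays lay above both neck arrays, and the MIST1-null neck array was the lowest. Cd74 followed the same order of cell types at 33.4 and 16.4 in neck against 118.2 and 59.2 in zymogenic cells.

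In wild-type mice the zymogenic minus neck differences were 1.82 for Cd74, 1.22 for H2-Ab1, 1.19 for H2-Aa and 0.84 for H2-Eb1, with a class median of 1.20. In MIST1-null mice they were 2.15 for H2-Aa, 1.86 for Cd74, 1.28 for H2-Eb1 and 1.06 for H2-Ab1, with a median of 1.57. Several neck values lay under the detection level, so the sizes are not firm. With values under the level raised to it, the differences in MIST1-null mice were 1.24 for H2-Aa, 0.85 for H2-Eb1, 0.64 for H2-Ab1 and 0.44 for Cd74. H2-Aa in MIST1-null mice and Cd74 in wild-type mice kept 2-fold in that form and also with a pseudocount of 32, at 1.29 and 1.20.

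The machinery around class II did not move as 1 group. Of 11 further genes of class II loading and control, 9 were measured, and H2-DMb1 and H2-DMb2 share a probe set and were not used. In zymogenic against neck cells 1 of the 9 was at least 2-fold higher in wild-type and 1 in MIST1-null mice. Of all genes, 3.71% and 2.78% were. In both cases the gene was Ctss, of the lysosomal protease that trims the invariant chain. Ctss read 58.0 in wild-type neck, 33.3 in MIST1-null neck, 171.9 in wild-type zymogenic and 124.4 in MIST1-null zymogenic cells, differences of 1.57 and 1.90. Its pattern over the arrays had the order seen for H2-Aa and H2-Ab1. Ciita, the coactivator gene itself, read 95.9, 66.6, 119.1 and 56.1 in that order, so that the zymogenic minus neck difference was 0.31 in wild-type and -0.25 in MIST1-null mice. Rfxank, a subunit of the X box factor, differed by 0.94 and 0.19, the reductase gene Ifi30 by 0.60 and -0.39, and H2-Oa, a chain of a loading inhibitor, by -0.69 and 0.43. The medians of the 9 genes were 0.31 in wild-type and -0.11 in MIST1-null mice.

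Macrophage and myeloid members were mixed. Lyz2, which encodes the lysozyme of macrophages and neutrophils, read 11.4 in wild-type neck, 9.1 in MIST1-null neck, 63.9 in wild-type zymogenic and 74.6 in MIST1-null zymogenic cells. Both zymogenic arrays were detectable and both neck arrays were far under the level. The differences were 2.49 and 3.04, or 0.55 and 0.77 with the neck values raised to the level, and 1.14 and 1.38 with the pseudocount of 32.

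The C1q genes encode the 3 chains of the first complement component, made in tissues mainly by macrophages, and they lie side by side on chromosome 4, with 9.72 kb between C1qb and C1qa and C1qc in that interval. C1qb read 36.5 and 20.8 in wild-type and MIST1-null neck cells against 71.5 and 70.0 in zymogenic cells. C1qc read 32.3 and 22.9 against 56.9 and 74.3. For both genes the zymogenic arrays were detectable and the neck arrays were not. The differences were 0.97 and 0.82 in wild-type and 1.75 and 1.70 in MIST1-null mice, for C1qb and C1qc in turn. In MIST1-null mice they were 0.68 and 0.77 with the neck values raised to the level and 0.95 for both with the pseudocount of 32, so neither kept 2-fold. C1qa went its own way, at 28.9, 30.6, 22.0 and 24.8, all under the level.

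The promoter windows of C1qb and C1qc are shown because these neighbours had like values. Matches to a form of ETS factor site (GAGGAA, or TTCCTC where it lies on the other strand) are in capitals. No other form was searched for, so shorter GGAA stretches are not marked. PU.1, the ETS factor of macrophages encoded by Spi1, binds sites of this form. The windows lie at chr4:136886151-136886450 and chr4:136892865-136893164, both on the minus strand.
C1qb: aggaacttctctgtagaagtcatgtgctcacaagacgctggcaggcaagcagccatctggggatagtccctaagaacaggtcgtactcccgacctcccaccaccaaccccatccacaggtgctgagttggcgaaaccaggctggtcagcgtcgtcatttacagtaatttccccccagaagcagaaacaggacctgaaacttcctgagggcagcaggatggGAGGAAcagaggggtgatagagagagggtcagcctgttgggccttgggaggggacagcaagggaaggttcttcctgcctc
C1qc: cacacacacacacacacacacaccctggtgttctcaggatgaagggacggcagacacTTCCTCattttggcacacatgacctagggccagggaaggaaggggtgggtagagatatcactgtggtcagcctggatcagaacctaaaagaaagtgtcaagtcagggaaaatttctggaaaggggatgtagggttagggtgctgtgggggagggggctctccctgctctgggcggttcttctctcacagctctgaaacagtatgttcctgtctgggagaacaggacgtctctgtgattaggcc

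The match began 30 bases before the start in C1qb and 193 bases before it, on the opposite strand, in C1qc. A match was in 12 of the 21 members with a window and in 28.3% of all windows. The former counts genes with a match in any of their windows, 26 in all, so these are unlike shares.

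Csf1r, the receptor for the growth factor that macrophages depend on, read 46.6 and 28.7 in wild-type and MIST1-null neck cells against 79.0 and 49.0 in zymogenic cells. It was higher in zymogenic cells by 0.76 and 0.77, under 2-fold in both genotypes. Cd68, a lysosomal protein of macrophages, was at 36.1 and 44.4 in neck against 60.6 and 32.5 in zymogenic cells, with differences of 0.75 and -0.45. Its arrays overlapped between cell types. Cd14, a receptor for bacterial lipopolysaccharide, and Itgam, the CD11b integrin chain, stayed between 22.9 and 37.5 in every array, under the level, with differences from -0.46 to 0.07. The class median was 0.76 in wild-type and 0.33 in MIST1-null mice.

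The adapters Tyrobp and Fcer1g pass on signals of activating receptors on myeloid, natural killer and mast cells. Tyrobp read 52.9 in wild-type neck, 58.3 in MIST1-null neck, 98.4 in wild-type zymogenic and 83.7 in MIST1-null zymogenic cells, all detectable. Fcer1g read 25.5, 26.8, 55.6 and 39.8 and was detectable in wild-type zymogenic cells alone. Tyrobp was higher in zymogenic cells by 0.90 and 0.52 and Fcer1g by 1.13 and 0.57, in wild-type and MIST1-null mice in turn. With the neck value raised to the level, Fcer1g differed by 0.35 in wild-type mice.

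Of other macrophage genes, 14 of 15 listed were measured, and 6 of the 14 were under the level in all arrays. At least 2-fold higher were 2 in wild-type and 2 in MIST1-null zymogenic cells, beside 3.71% and 2.78% of all genes, and 0 were lower. The medians of the 14 were 0.32 and 0.65, and 10 and 12 lay above 0, beside 54.0% and 54.4% of all genes. Cx3cr1, the fractalkine receptor of resident macrophages, read 212.9 in wild-type neck, 114.3 in MIST1-null neck, 861.1 in wild-type zymogenic and 692.1 in MIST1-null zymogenic cells. It was detectable in all arrays and had the largest differences of this list, 2.02 and 2.60. Ms4a7 differed by 1.77 and 0.83 and Mpeg1, a pore protein of phagocytes, by -0.43 and 1.17. Raised to the level, the wild-type difference of Ms4a7 was 0.46 and the MIST1-null difference of Mpeg1 was 0.61. Spi1 differed by 0.04 and 0.70, and Itgax, the CD11c integrin chain, by -0.28 and -0.91.

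Of the 3 T cell members, all lay above 0 in wild-type and 2 in MIST1-null zymogenic against neck cells. Of all genes, 54.0% and 54.4% did. Cd3e encodes the epsilon chain of the T cell receptor complex and was detectable in all 4 arrays, at 89.5 in wild-type neck, 84.9 in MIST1-null neck, 106.9 in wild-type zymogenic and 106.8 in MIST1-null zymogenic cells. The differences were 0.26 and 0.33. Cd3g, the gamma chain gene, with the Cd3d gene between it and Cd3e on chromosome 9, was under the level throughout, from 13.2 to 29.8, with differences of 1.18 and -0.18. Cd8a, of the coreceptor of cytotoxic T cells, read 32.2, 27.0, 48.2 and 28.2 and reached the level in wild-type zymogenic cells alone. No T cell member was counted at 2-fold in any of the 4 comparisons. Their median was 0.58 in wild-type and 0.06 in MIST1-null mice.

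Of further T cell and natural killer cell genes, 16 of 17 were measured. In wild-type zymogenic cells 2 were at least 2-fold higher and 0 lower, beside 3.71% and 4.01% of all genes. In MIST1-null mice the count was 0 in either direction, beside 2.78% and 2.72% of all genes. The 2 were of cytotoxic cells, the granule protein gene Nkg7 at 1.88 and the lectin receptor gene Klrd1 at 2.02. Nkg7 read 19.1 in wild-type neck, 33.5 in MIST1-null neck, 70.4 in wild-type zymogenic and 54.4 in MIST1-null zymogenic cells. Klrd1 read 14.6, 14.3, 59.6 and 23.8, so that wild-type zymogenic cells alone were detectable. With the neck values raised to the level the wild-type differences were 0.69 for Nkg7 and 0.45 for Klrd1. Ncr1 and Klrk1, of natural killer cell receptors, were under the level in all arrays, and Zap70, a kinase of the T cell receptor, differed by 0.92 and -0.63.

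Neither B cell member reached the detection level on any array. Cd79a lay between 13.7 and 20.9 and Cd79b between 31.7 and 41.6, and in both the MIST1-null neck array was the highest. Their zymogenic minus neck differences ran from -0.19 to 0.26. Of further B cell and plasma cell genes, 9 of 10 were measured, with medians of -0.27 in wild-type and 0.28 in MIST1-null mice and 5 and 4 of the 9 below 0. In each genotype 1 of the 9 was counted as higher in zymogenic cells, beside 3.71% and 2.78% of all genes, and 0 as lower. That gene was Jchain, which joins the antibody chains secreted by plasma cells. Jchain read 24.2 in wild-type neck, 16.5 in MIST1-null neck, 67.4 in wild-type zymogenic and 53.0 in MIST1-null zymogenic cells, differences of 1.48 and 1.68, or 0.63 and 0.28 with the neck values, both under the level, raised to it. Ms4a1, the CD20 gene of B cells, and Cr2 and Blk stayed under the level, and Cd22 differed by -0.57 and 0.93.

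Set side by side, the macrophage, T cell and B cell members had medians of 0.76, 0.58 and 0.14 in wild-type and 0.33, 0.06 and -0.12 in MIST1-null mice, beside 0.05 over all genes in each. Counted at 2-fold higher were 1 of 8, 0 of 3 and 0 of 2 in wild-type and 3 of 8, 0 of 3 and 0 of 2 in MIST1-null mice. Of all genes, 3.71% and 2.78% were so counted. With so few genes in a class and most of them under the level, the order of the classes was not tested. Genes of other leukocytes were mostly dim. Dendritic cell genes had medians of 0.19 and 0.32 with 0 of 8 at 2-fold in either direction, and Clec9a, Zbtb46, Cd209a and Flt3 were under the level in all arrays while Siglech was not. Mast cell genes had medians of 0.65 and 0.26 with 0 of 8 at 2-fold, and the granule protease genes Mcpt1 and Mcpt4 reached the level in 2 arrays and 1 array. Neutrophil and eosinophil genes had medians of 0.19 and -0.30. Of those 12 genes, S100a9 was higher by 1.21 and Siglecf lower, by -1.20 at 77.2 against 177.1, in wild-type mice, and S100a8 was higher by 1.08 in MIST1-null mice. Of all genes, 4.01% in wild-type and 2.72% in MIST1-null mice were at least 2-fold lower. With values raised to the level, S100a9 differed by 0.14 and S100a8 by 0.01.

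**Figure D3:**
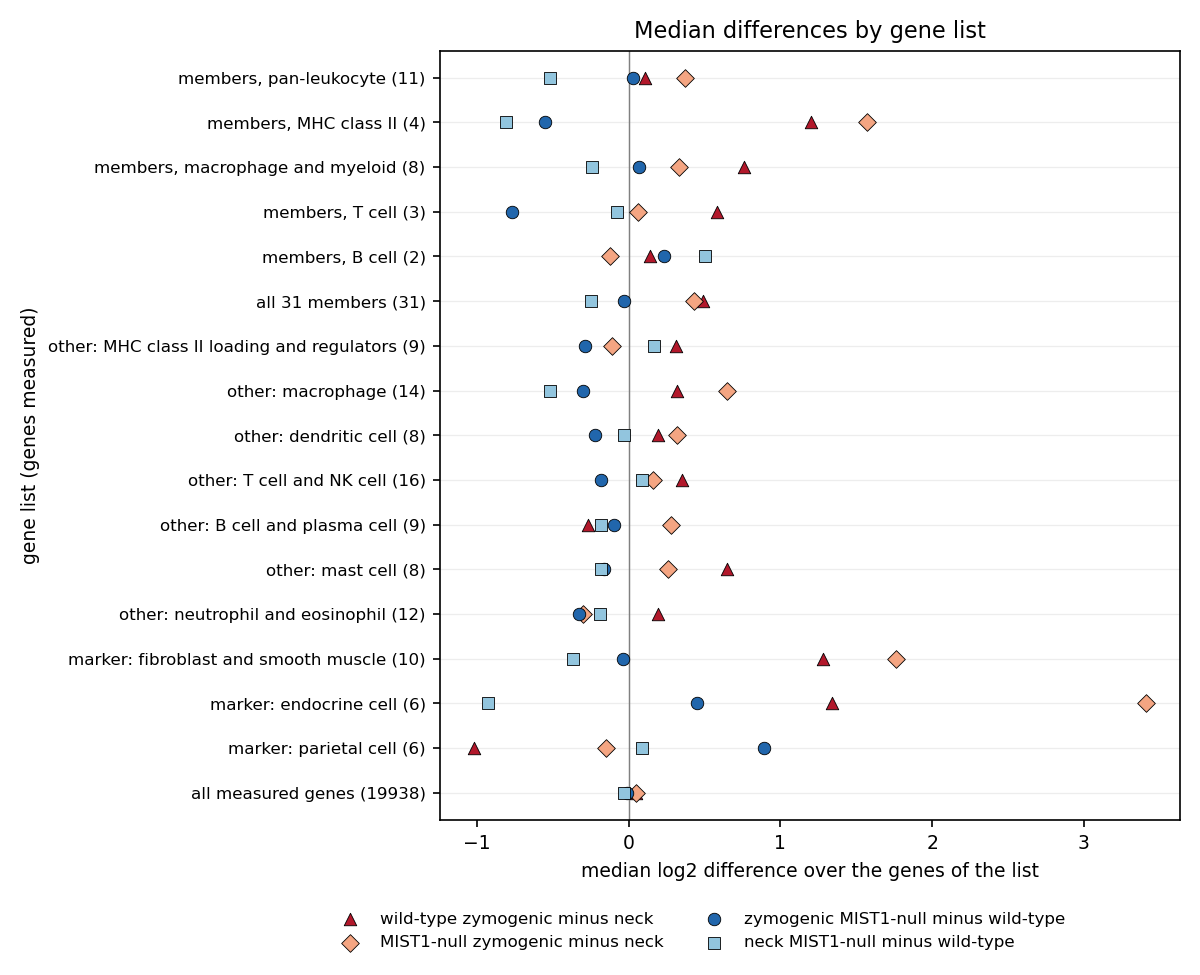
Median log2 difference over the measured genes of each list in the 4 comparisons, with the number of genes in brackets; each point is the median of 1 comparison between 2 arrays. Members of the MHC class II class lie at 1.20 and 1.57 in the cell type comparisons, and fibroblast and smooth muscle genes and endocrine genes lie at 1.28 or above in them.

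Markers of other cells moved with cell type as well. All 10 fibroblast and smooth muscle genes were above 0 in wild-type mice and 9 of 10 in MIST1-null mice, with 6 at least 2-fold higher in each. Of all genes, 54.0% and 54.4% were above 0, and 3.71% and 2.78% were at least 2-fold higher. The 10 genes summed to 533 and 382 in the neck arrays against 1357 and 1488 in the zymogenic arrays. Their lowest single value was 10.6, for Cnn1 in MIST1-null neck cells. Endocrine genes, of the hormone cells in the glands, were at least 2-fold higher for 4 of 6 in wild-type and 5 of 6 in MIST1-null mice, with summed intensities of 5762 and 3703 against 8743 and 12793. Parietal cell genes were lower in wild-type zymogenic cells for 6 of 6, with a median of -1.02, and had a median of -0.15 in MIST1-null mice. Endothelial genes, of the vessel wall, had medians of 0.06 and 0.28, with sums from 289 to 401 over all arrays. The 31 members summed to 1424 in wild-type neck, 1147 in MIST1-null neck, 1778 in wild-type zymogenic and 1601 in MIST1-null zymogenic cells. Single bright genes weigh on such sums, as Lcp1 at 204.6 in MIST1-null neck and Ghrl, an endocrine gene, at 4371.4 in wild-type neck cells. The part of connective tissue or other cells in the leukocyte values was not tested.

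Pan-leukocyte members were split between cell types, with 6 of 11 above 0 in wild-type and 7 of 11 in MIST1-null mice. Of all genes, 54.0% and 54.4% were above 0. Of 11, 0 were at least 2-fold higher and 2 lower in wild-type zymogenic cells, beside 3.71% and 4.01% of all genes. In MIST1-null zymogenic cells 1 was higher and 1 lower, beside 2.78% and 2.72% of all genes. The pan-leukocyte medians were 0.11 and 0.37. Lcp1, an actin bundling protein of blood cells that some epithelial cells also make, was detectable in all arrays, at 159.7 in wild-type neck, 204.6 in MIST1-null neck, 107.4 in wild-type zymogenic and 161.2 in MIST1-null zymogenic cells. Its log2 differences were -0.57 and -0.34, and the arrays of the cell types overlapped. Arhgdib read 44.7, 100.2, 58.0 and 49.6, so that the MIST1-null neck array stood apart from the other 3. Its differences were 0.38 in wild-type and -1.01 in MIST1-null mice.

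Cd37, a tetraspanin of lymphocytes, read 90.5 in wild-type neck, 48.0 in MIST1-null neck, 22.2 in wild-type zymogenic and 38.1 in MIST1-null zymogenic cells. Both neck arrays were detectable and neither zymogenic array was. The differences were -2.03 and -0.33, and the former kept 2-fold with the low value raised to the level, at -1.05. Coro1a, an actin regulator of leukocytes, read 40.2, 28.0, 57.3 and 37.6, with differences of 0.51 and 0.43. The small GTPase gene Rac2, the surface proteins Cd48 and Cd52, the lysosomal Laptm5 and the integrin chain Itgb2 were under the level in every array, between 9.3 and 38.9.

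Cd53, a tetraspanin found on most leukocytes, was the member with the widest range. It read 117.7 in wild-type neck, 6.3 in MIST1-null neck, 56.7 in wild-type zymogenic and 72.1 in MIST1-null zymogenic cells. The MIST1-null neck array was far under the level and the other 3 arrays were detectable. In zymogenic against neck cells Cd53 was lower by -1.05 in wild-type and higher by 3.52 in MIST1-null mice. With the low value raised to the level, the latter was 0.72. The next lowest difference of a pan-leukocyte gene between MIST1-null and wild-type neck cells was -0.92, for Cd37, and that of Ptprc was -0.69.

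Mr1 encodes an MHC class I-like protein that shows vitamin metabolites to a class of T cells and is made by many kinds of cell. It read 91.6 in wild-type neck, 19.8 in MIST1-null neck, 24.9 in wild-type zymogenic and 27.1 in MIST1-null zymogenic cells. The wild-type neck array alone was detectable. Its zymogenic minus neck differences were -1.88 in wild-type and 0.45 in MIST1-null mice, the former -1.07 with the low value raised to the level.

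Between genotypes, neck cells held the members with the largest differences. At least 2-fold lower in MIST1-null neck cells were 3 of 31 members, beside 1.32% of all genes, and 1 was higher, beside 1.04%. The 3 were Cd53 at -4.22, Mr1 at -2.21 and H2-Aa at -1.32, and the higher one was Arhgdib at 1.17. Each of the 3 had its MIST1-null neck value under the level, and with it raised to the level they differed by -1.43, -1.07 and -0.41. Cd74 differed by -1.03 with neither array detectable. The member median was -0.25 against -0.03 over all genes. Below 0 lay 20 of 31 members, beside 10495 of all 19938 genes.

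All 4 MHC class II genes were lower in MIST1-null than in wild-type neck cells, with a median of -0.81 and H2-Eb1 nearest to 0 at -0.33. Of the 4, 2 were detectable in wild-type and 0 in MIST1-null neck cells. With values raised to the level, H2-Aa differed by -0.41, H2-Ab1 by -0.16, and Cd74 and H2-Eb1 by 0.00. The pan-leukocyte median was -0.52 with 8 of 11 genes below 0, the macrophage median -0.24 with 5 of 8, and the T cell median -0.08 with 2 of 3, while both B cell genes lay above 0 at 0.60 and 0.39. Of the other macrophage genes 13 of 14 lay below 0, beside 10495 of all 19938 genes. Their median was -0.52, with Spi1 at -1.01 and Cx3cr1 at -0.90. Of the 14 macrophage genes, 6 were detectable in wild-type and 3 in MIST1-null neck cells, so most of these differences lie under the level. Zap70 and Csf3r, a receptor of neutrophils, were higher in MIST1-null neck cells, at 1.40 and 1.10, or 0.36 and 0.51 with values raised to the level. Endocrine genes (median -0.93) and fibroblast and smooth muscle genes (median -0.37, 8 of 10 below 0) were lower in the MIST1-null neck array too, and their part in the result was not tested.

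In zymogenic cells, no member differed by 2-fold between genotypes. The count was 0 of 31 higher, beside 3.05% of all genes, and 0 of 31 lower, beside 3.1%. The median was -0.03, against -0.01 over all genes. Cd74 fell just short of 2-fold lower, at 59.2 against 118.2, and Cd3g did so with both arrays under the level. Next among detectable members were Cd68 at -0.90, Cd8a at -0.77, H2-Ab1 at -0.74 and Csf1r at -0.69. Upward, Cd37 was at 0.78, between values under the level, and Lcp1 at 0.59. The MHC class II median was -0.55, with H2-Aa at -0.36 and H2-Eb1 at 0.12.

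Among the genes outside the list, Ciita was lower in MIST1-null zymogenic cells by -1.09, from 119.1 to 56.1, with both arrays detectable, and by -0.52 in neck cells. With the pseudocount of 32 the former was -0.78. Ms4a7 was lower by -1.69, Klrd1 by -1.32, S100a9 by -1.27 and Mcpt4 by -1.44, each detectable in wild-type zymogenic cells alone, and Mcpt1 was higher by 1.25, from under the level. Lower were thus 1 of 9 class II loading, 1 of 14 macrophage, 1 of 16 T and natural killer, 1 of 8 mast and 1 of 12 neutrophil and eosinophil genes. Of the 8 dendritic and 9 B cell and plasma cell genes, 0 were called. Of all genes, 3.1% were lower and 3.05% higher. With values raised to the level, the differences of Ms4a7, Klrd1, S100a9, Mcpt4 and Mcpt1 were -0.46, -0.45, -0.14, -0.22 and 0.56. Parietal cell genes were higher for 6 of 6, with a median of 0.89, in the same comparison, beside 48.9% of all genes above 0.

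MIST1-null cells read lower than wild-type cells in both cell types for 11 of 31 members, or 35.5%, beside 28.8% of all genes. Of the MHC class II genes 3 of 4 did, and Csf1r, at -0.69 and -0.70 in zymogenic and neck cells, had nearly the same difference in both. The MIST1-null neck value of Csf1r was under the level, and with it raised to the level the neck difference was -0.09. Cd74 lay close to 2-fold lower in both, but neither of its neck values was detectable. The genotype differences of the cell types rest on separate arrays, and their difference was not tested.

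**Figure D4:**
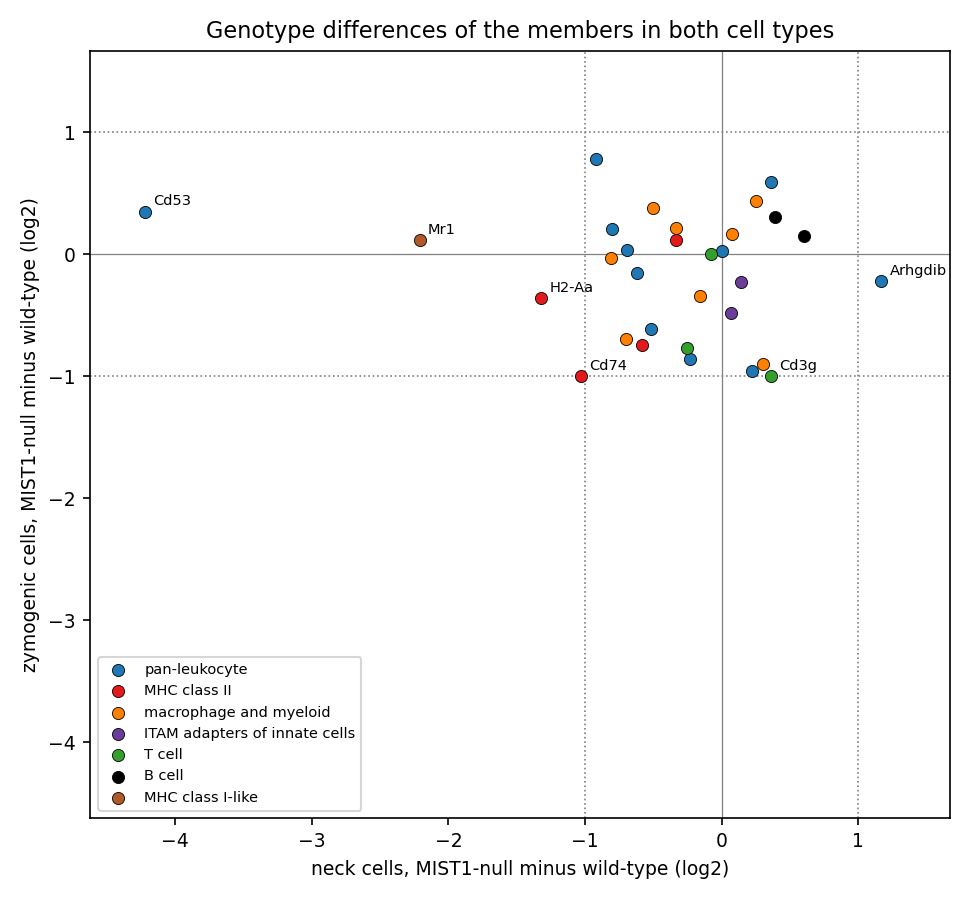
Log2 difference between MIST1-null and wild-type mice for each member, in neck cells on the horizontal axis and in zymogenic cells on the vertical axis, coloured by class. Dotted lines mark 2-fold, and names are given where either rounded difference reaches it. Cd53 and Mr1 lie far left at -4.22 and -2.21 with values near 0 in zymogenic cells, and Cd74 lies beside the lines for 2-fold lower on both axes.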

How the data were processed

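Pooled, amplified RNA of laser-captured gastric cells was hybridised to Affymetrix Mouse Gene ST arrays, 1 for each of 4 groups. The values deposited by the authors are linear intensity values per probe set, and the series design text names dChip for quality control and comparison. The sources used here do not give the background correction or scaling. Array medians and quartiles were close. With 1 array a group, the spread within a group was not measured, and no error is given.

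The platform annotation ties 21789 of the 35512 probe sets to a single gene, 1621 to several, and lists no gene for 12102. For 21698 of the former the Entrez identifier matched RefSeq (GRCm38.p6), with 0 symbols changed. The brightest probe set on average stood for its gene, giving 19938 genes. Intensities were floored at 1 and taken as log2 (pandas 2.3.3, Python 3.11.15), with no filter on entry. A call needed a 2-fold difference and a brighter array at the level. The steps were tested on simulated data.

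The members, classes and further lists were chosen with earlier results of these data known. Members with a call are given in full, with others added where their class needed them. At most 5 genes of each further list are described, those called most often and then with the largest difference. Some listed genes are not reported here, among them red blood cell genes apart from Alas2. Alas2 lay under the level in all arrays. Surface mucous cell genes had medians of 0.54 and 0.81 in zymogenic against neck cells and 0.04 and 0.05 between genotypes. The 8 alternative settings changed the pseudocount, normalization, level, probe set rule or members entering.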

Additional observations from a re-analysis of the deposited data

Results flagged for a closer look

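Cd53 differed in opposite directions between cell types in the 2 genotypes: zymogenic minus neck was -1.05 in wild-type and 3.52 in MIST1-null mice, which differ by 4.57 on the log2 scale. Each direction is 1 pair of pooled arrays, and the difference was not tested. It rests on the MIST1-null neck array at 6.3. With that value raised to the detection level of 43.7 the MIST1-null difference was 0.72, under 2-fold, and the wild-type one was again -1.05. Groups of 1 array allow no search for outlying samples.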

How the results depend on the processing

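With 1 array per group no array was left out. The arrays form 1 zymogenic and neck pair in each genotype, and a fit with genotype as a block, with 1 residual degree of freedom, was not run. Quantile normalization and median centring were the alternatives that could turn a direction, and none of the 21 called values of single members turned. The pseudocount of 32, used with no level, kept 9 of the 21 calls. The 75th percentile level of 80.9 and raising values to the level kept 11 each, quantile normalization 20 and median centring 21. The other 3 alternatives (no level, averaging probe sets, members whose mean reached the level) could not end a call of a single member by their construction. Calls that held in every alternative they entered were 6. They were Cd37, Cd74 and Mr1 in wild-type zymogenic against neck cells, H2-Aa in the MIST1-null pair, and Cd53 and Mr1 in neck cells between genotypes. Cd53 and Mr1 did not enter the setting of members whose mean reached the level.

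Of members higher in wild-type zymogenic cells, 5 became 2 with the pseudocount. They became 3 with the 75th percentile level, with values raised to the level, or with members whose mean reached the level. The share of all genes went from 3.71% to 1.31% with the pseudocount, 2.0% with the 75th percentile level and 1.83% with values raised. The setting of members whose mean reached the level changes the members alone, so all-gene shares stay as they were. In the MIST1-null pair 8 became 3, 1, 1 and 5 in the same order. There the share of all genes went from 2.78% to 1.08%, 1.57% and 1.44% in the settings other than that of the members' mean. Members lower in wild-type zymogenic cells went from 3 to 1 with members whose mean reached the level, of which there were 12, and so did those lower in MIST1-null neck cells. With the pseudocount Arhgdib left 0 lower in the MIST1-null pair and 0 higher in MIST1-null neck cells. The shares of all genes in these went from 2.72% to 1.11% and from 1.04% to 0.14%. Quantile normalization gave 1 member lower in MIST1-null zymogenic cells where there had been 0, while the share of all genes went from 3.1% to 2.96%. The member medians of wild-type, MIST1-null and neck comparisons were 0.25, 0.22 and -0.12 with the pseudocount, 0.11, 0.00 and 0.00 with values raised to the level, and 0.80, 0.81 and -0.64 with members whose mean reached it. The median in zymogenic cells between genotypes turned from -0.03 to 0.02 with median centring. Fewer genes entering or smaller differences at low values follow from how these alternatives are built; for quantile normalization and median centring the cause was not tested. Most members read near or under the level, which limits every size given for them.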
